A study of Mus musculus with 4 samples.

Results

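Collagens and other extracellular matrix proteins were examined in mouse bone marrow-derived dendritic cells (BMDCs) that carry or lack GOLPH2, the Golgi-resident membrane protein made from the Golm1 gene. The members are the genes named as collagen chains, laminin chains, fibulins and fibrillins, together with fibronectin, nidogens, lysyl oxidases, matrix proteoglycans and matricellular proteins from a fixed list. In all, 63 such genes were among the 15881 genes of the deposited tables. All 63 were in the table of unstimulated cells and 60 were in the table of stimulated cells.

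The 4 groups were GOLPH2-/- (KO) BMDCs after IFN-gamma for 16 h and then LPS for 4 h, WT BMDCs after the same stimulation, unstimulated KO BMDCs and unstimulated WT BMDCs. LPS is a component of the bacterial outer membrane and IFN-gamma a cytokine that primes myeloid cells for it. All mice were C57BL/6 and 8 weeks old, and each group gave 1 library of strand-specific mRNA sequencing. The labels give neither the culture protocol, nor the number of mice behind a library, nor the part of the gene that was deleted. With 1 library per group no difference has a replicate check, and each call below compares the reads of 2 libraries, not the genotypes. Since these are bulk cultures, fewer cells of a type and less RNA per cell cannot be told apart.

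The extracellular matrix is a mesh of secreted proteins around cells. Fibrillar collagens form its cables, type IV collagen and laminins form the thin sheets called basement membranes, and fibronectin links collagen to cell-surface integrins. Matricellular proteins such as tenascin C and SPARC regulate how cells attach rather than bearing load. Fibroblasts and smooth muscle cells are the usual makers of types I and III collagen. Myeloid cells are well known for osteopontin, thrombospondin 1 and fibronectin.

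The deposited tables hold KO over WT ratios and p-values, from which the whole reads of both libraries of each table were recovered. The libraries held 36.8 M reads in stimulated KO cells and 37.7 M in stimulated WT cells, and 39.6 M reads in unstimulated KO cells and 34.6 M in unstimulated WT cells. Golm1 had 190 reads in stimulated KO cells and 779 reads in stimulated WT cells, which put the KO level at 25.0% of the WT level. In unstimulated cells, where its reads were known as lower limits of 224 in KO and 834 in WT, it was at 23.5%. All 15 genes of a list of dendritic and myeloid markers were listed in both states. Their summed level was 9123 RPM (reads scaled by the library total) in stimulated KO and 8497 in stimulated WT cells. In unstimulated cells it was no less than 8906 in KO and 8451 in WT, since the reads of Itgax are lower limits there. The reads of Cd74 and Emr1 in both states, and of H2-Ab1 in unstimulated cells, were estimates and not recovered whole numbers. Cd74 alone gave 3494 RPM in stimulated KO and 3298 in stimulated WT cells. Flt3 stood at 10.3 RPM in stimulated KO and 9.41 in stimulated WT cells, and Zbtb46 at 22.7 and 25.0. Of the 15 markers, 10 were called higher and 3 lower in stimulated cells, against 5.36% and 6.54% of all genes. In unstimulated cells 9 were called higher and 2 lower, against 4.7% and 4.27% of all genes. The markers' median log2 ratio, KO over WT, was 0.09 in stimulated and 0.09 in unstimulated cells. In stimulated cells Batf3 was the highest at 0.57 and Ciita the lowest at -0.30, both called. Each marker had at least 308 reads in each library, so small ratios could be called, while the shares of all genes include sparse genes. A call is defined below.

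In stimulated cells, 14 of 60 matrix genes were called higher in KO and 4 were called lower. A call is an adjusted p under 0.001, from the authors' deposited p-values adjusted by Benjamini-Hochberg over all genes of the table; by the same rule, 5.36% of the 15310 genes of that table were called higher and 6.54% lower. In unstimulated cells, 10 of 63 matrix genes were called higher and 2 lower, against 4.7% and 4.27% of the 15394 genes of that table. Ratios throughout compare reads divided by the library totals, so an equal number of reads gives a log2 ratio of 0.04 in stimulated and -0.19 in unstimulated cells. The median log2 ratio of the matrix genes, KO over WT, was 0.35 in stimulated cells and 0.26 in unstimulated cells, while the median of all genes was 0.0052 and 0.0013. Among the members measured as precisely as 50 reads in each library allow, that median was 0.11 in stimulated and 0.16 in unstimulated cells. Many members were sparse: 26 of 60 in stimulated cells and 31 of 63 in unstimulated cells had under 50 reads in both libraries.

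In both states, 8 matrix genes were called higher in KO, namely Bgn, Col1a2, Col3a1, Col5a2, Fbln2, Fn1, Lamb1 and Spp1, as were 2.96% of the 14823 genes in both tables. Col27a1 and Thbs1 were called lower in both states, against a background of 2.23%. Col1a1, Col6a1, Col6a2, Lox, Sparc and Tnc were called higher in stimulated cells and missed the threshold in unstimulated cells, while Col8a1 and Lama5 did the reverse. Col5a1 and Col5a3 were called lower in stimulated cells and missed the threshold in unstimulated cells. The other 43 members were called in neither state, and 0 members were called in opposite directions. In the authors' deposited table, 12 matrix genes were marked as differential in stimulated and 9 in unstimulated cells, while the marks covered 1.04% of all genes in stimulated and 1.05% in unstimulated cells.

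Other rules of calling moved these counts. With a ratio of at least 1.5-fold also required, 12 matrix genes were called higher and 0 lower in stimulated cells, against 0.425% and 0.594% of all genes, and 9 higher and 0 lower in unstimulated cells, against 0.409% and 0.299%. With an adjusted p under 0.05, 23 were called higher and 5 lower in stimulated cells, against 10.2% and 11.7% of all genes, and 12 higher and 4 lower in unstimulated cells, against 9.36% and 8.5%. Among the 30 members of stimulated cells measured as precisely as 50 reads in each library allow, 10 were called higher and 4 lower, against 7.5% and 9.2% of such genes. Among 28 such members of unstimulated cells, 6 were called higher and 2 lower, against 6.61% and 5.99%. An exact binomial test on the reads called 13 higher and 4 lower in stimulated cells, against 5.32% and 6.5%, and 10 higher and 2 lower in unstimulated cells, against 4.66% and 4.22%.

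**Figure D1:**
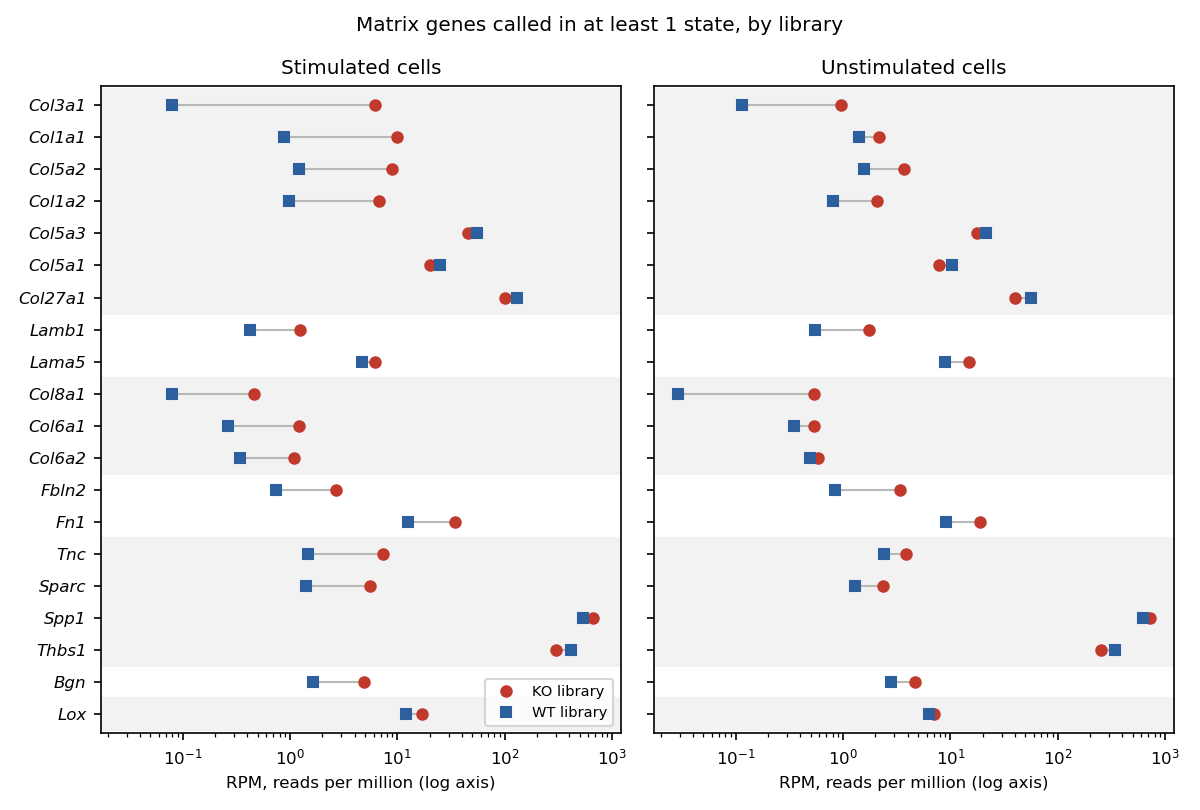
RPM (log axis) of the 20 matrix genes called in at least 1 state, in the KO library (circles) and the WT library (squares) of stimulated and unstimulated cells, grouped by role in shaded bands. The fibrillar chains that were higher in KO all lay near or under 10 RPM, while Col27a1, which was lower in KO, lay at 99.9 in stimulated KO and 132 in stimulated WT cells.

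The 3 sequences that follow are the 250 bases before a RefSeq transcript start (GRCm38.p6) of genes that were called higher in KO in both states: Col3a1 (chr1:45311288-45311537, plus strand), Bgn (chrX:73483351-73483600, plus strand) and Spp1 (chr5:104434861-104435110, plus strand). They show the bases before a collagen that was almost without reads in WT cells and before Spp1, the member with the most reads. Among the windows of genes called in both states, these are the ones next to the outermost RefSeq start of the gene and with 0 bases in a GENCODE exon. The Col3a1 sequence nevertheless matched a transcript in the sense direction, which those of Bgn and Spp1 did not. Capitals mark CCAAT, the core of the CCAAT box, and TATAAA, the core of the TATA box; both strands were searched, so CCAAT on the other strand reads ATTGG. Each is written 5′ to 3′ on the gene's own strand.
Col3a1: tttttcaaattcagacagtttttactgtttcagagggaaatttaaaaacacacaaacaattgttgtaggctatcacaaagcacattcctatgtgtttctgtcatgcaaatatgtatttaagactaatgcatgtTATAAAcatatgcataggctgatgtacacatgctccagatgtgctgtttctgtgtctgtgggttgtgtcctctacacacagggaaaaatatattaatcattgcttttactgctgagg
Bgn: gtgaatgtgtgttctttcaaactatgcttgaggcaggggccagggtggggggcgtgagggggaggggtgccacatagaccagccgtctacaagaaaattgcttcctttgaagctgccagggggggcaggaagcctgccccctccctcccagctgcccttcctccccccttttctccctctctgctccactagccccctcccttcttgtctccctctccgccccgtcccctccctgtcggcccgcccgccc
Spp1: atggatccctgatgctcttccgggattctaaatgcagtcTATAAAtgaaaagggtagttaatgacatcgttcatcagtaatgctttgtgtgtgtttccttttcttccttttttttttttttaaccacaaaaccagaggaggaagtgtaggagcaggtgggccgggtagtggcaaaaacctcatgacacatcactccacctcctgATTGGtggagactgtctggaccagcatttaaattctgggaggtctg
TATAAA stood at bases -117 to -112 of Col3a1 and -211 to -206 of Spp1, counted back from the base before the start. CCAAT stood on the other strand at -46 to -42 of Spp1, and neither motif was in the Bgn window. The Col3a1 window was poor in G and C (35.2%), against 43.6% in Spp1 and 64.4% in Bgn. Among all 32851 RefSeq windows, 33.8% held CCAAT and 12.4% held TATAAA. Among the 49 windows found for 42 matrix genes, 15 (30.6%) held CCAAT and 10 (20.4%) held TATAAA. These matches describe letters and are not evidence of a bound factor. Both TATAAA matches lay at least 112 bases before the start, and whether either acts as a TATA box was not tested.

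Among the fibrillar collagens, 4 of 10 were called higher and 3 lower in stimulated cells, and 3 were called higher and 1 lower in unstimulated cells. The genes that were higher encode the chains of type I collagen (Col1a1 and Col1a2), type III collagen (Col3a1) and the Col5a2 chain of type V collagen. The genes that were lower encode Col27a1, a collagen best known from cartilage, and the other type V chains, Col5a1 and Col5a3. The genes that were lower had far more reads. Summed over the 10 genes, fibrillar collagens therefore stood at 204 RPM in stimulated KO cells and 223 RPM in stimulated WT cells, and at 82.7 RPM in unstimulated KO cells and 101 RPM in unstimulated WT cells.

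Col3a1, the single chain of type III collagen, had 226 reads in stimulated KO cells and 3 in stimulated WT cells. It had 38 reads in unstimulated KO cells and 4 in unstimulated WT cells. Both KO libraries were high and both WT libraries low, and the ratios rest on so few WT reads that their intervals are wide: the log2 ratio was 6.27 (95% interval 4.71 to 8.56) in stimulated and 3.06 (1.58 to 5.004) in unstimulated cells. These intervals, like all below except those of differences between states, are exact binomial (Clopper-Pearson) and cover the counting of reads alone. PCR copies are not independent molecules, and the spread between cultures is not in them.

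Col1a1 and Col1a2 assemble together into type I collagen, the main collagen of skin, bone and tendon. Col1a1 had 367 reads in stimulated KO cells and 33 in stimulated WT cells, but 86 in unstimulated KO and 49 in unstimulated WT cells. Col1a2 had 246 reads in stimulated KO and 37 in stimulated WT cells, with 82 in unstimulated KO and 28 in unstimulated WT cells. The log2 ratio of Col1a1 was 3.51 (2.996 to 4.07) in stimulated cells; in unstimulated cells it was 0.62 (0.10 to 1.16), with an adjusted p of 0.0720. For Col1a2 the ratio was 2.77 (2.27 to 3.31) in stimulated and 1.36 (0.72 to 2.03) in unstimulated cells. The stimulated KO library was thus the highest of the 4 for both chains.

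The type V chains, which help set the width of collagen fibrils, did not move together. Col5a2 had 326 reads in stimulated KO and 46 in stimulated WT cells, and 145 in unstimulated KO and 54 in unstimulated WT cells. Its log2 ratios were 2.86 (2.41 to 3.34) and 1.23 (0.77 to 1.71). Col5a1 had 734 reads in stimulated KO and 942 in stimulated WT cells, and 308 in unstimulated KO and 357 in unstimulated WT cells, with log2 ratios of -0.32 (-0.47 to -0.18) and -0.40 (-0.63 to -0.18). Col5a3 had 1673 reads in stimulated KO and 2076 in stimulated WT cells, and 699 in unstimulated KO and 747 in unstimulated WT cells, with log2 ratios of -0.28 (-0.37 to -0.18) and -0.29 (-0.44 to -0.14). In both states the interval of Col5a2 lay wholly above 0 and those of Col5a1 and Col5a3 wholly below it. In unstimulated cells Col5a1 and Col5a3 missed the threshold, at adjusted p of 0.00294 and 0.00161.

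Col27a1 was the fibrillar collagen with the highest level per length in all 4 libraries. It had 3673 reads in stimulated KO and 4963 in stimulated WT cells, or 7.67 RPKM (RPM per kilobase of exon) in KO and 10.1 RPKM in WT. In unstimulated cells it had 1589 reads in KO and 1950 in WT, or 3.08 RPKM in KO and 4.32 RPKM in WT. Its log2 ratio was -0.40 (-0.46 to -0.34) in stimulated and -0.49 (-0.58 to -0.39) in unstimulated cells, so the KO library was lower in both. Per length, the genes that were higher in KO stayed below it: in stimulated KO cells Col1a1 reached 1.52, Col5a2 0.924, Col3a1 0.626 and Col1a2 0.538 RPKM.

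The remaining fibrillar chains were not called. Col11a2, a chain of cartilage type XI collagen, had 251 reads in stimulated KO and 287 in stimulated WT cells, and 313 in unstimulated KO and 301 in unstimulated WT cells. The lowest ratios of this group rested on a handful of reads. Col24a1 had 3 reads in stimulated KO and 6 in stimulated WT cells (log2 ratio -0.96, -3.59 to 1.26), and Col2a1, the main collagen of cartilage, had 7 in unstimulated KO and 10 in unstimulated WT cells (-0.71, -2.34 to 0.84). Both intervals spanned 0.

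**Figure D2:**
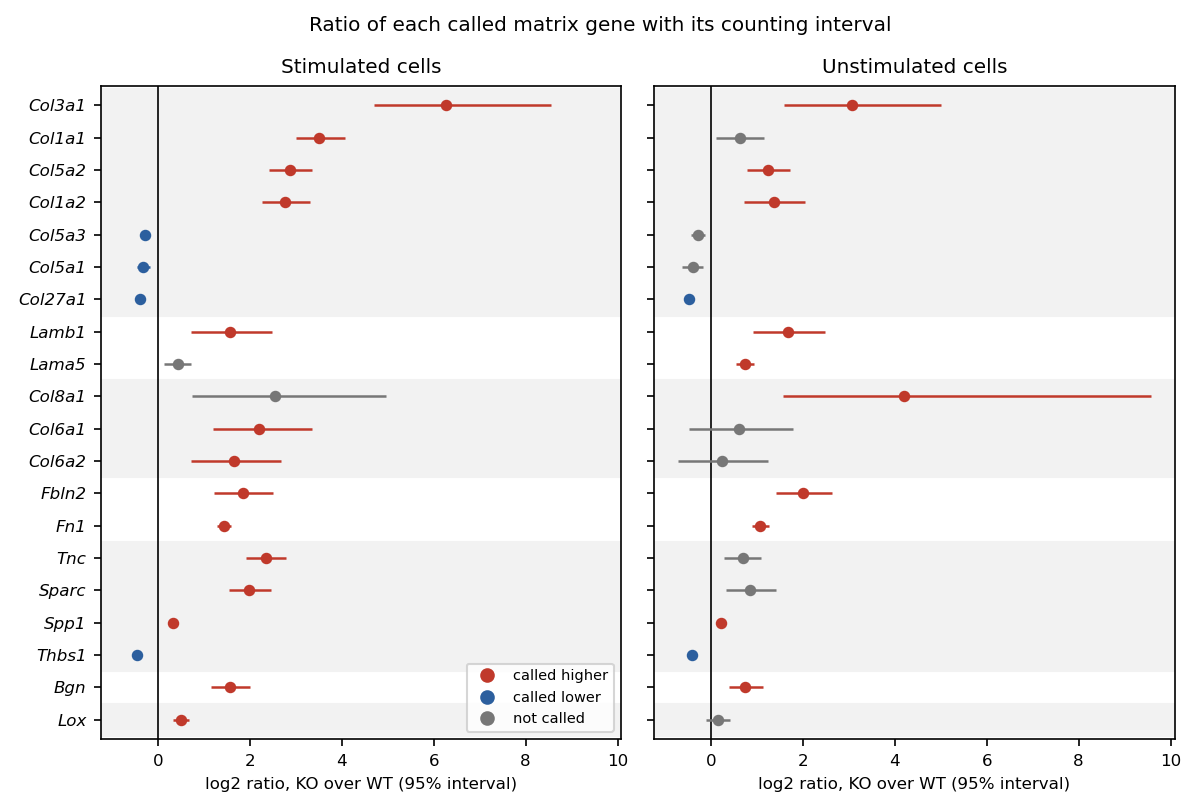
The log2 ratio of KO over WT with its 95% counting interval for the 20 matrix genes called in at least 1 state, in stimulated and unstimulated cells; colours mark the call and 0 means an equal share of reads in both libraries. The intervals of Col3a1 (4.71 to 8.56 in stimulated cells) and Col8a1 (1.56 to 9.57 in unstimulated cells) are wide, since their WT libraries held 3 reads and 1 read.

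Of the basement membrane genes, Lamb1 alone was called in stimulated cells (13 listed), and Lamb1 and Lama5 in unstimulated cells (16 listed), all higher in KO. Lamb1, a beta chain of many laminins, had 46 reads in stimulated KO and 16 in stimulated WT cells, and 69 in unstimulated KO and 19 in unstimulated WT cells. Lamb1 had a log2 ratio of 1.56 (0.71 to 2.48) in stimulated and of 1.67 (0.92 to 2.48) in unstimulated cells, and the interval of the difference between states spanned 0 (-1.21 to 0.99). Lama5, the alpha chain of the laminins of mature basement membranes, had 229 reads in stimulated KO and 175 in stimulated WT cells, and 592 in unstimulated KO and 311 in unstimulated WT cells. For Lama5 the log2 ratio was 0.74 (0.54 to 0.94) in unstimulated cells; in stimulated cells it was 0.42 (0.13 to 0.72), with an adjusted p of 0.0184.

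Lamc1, the gamma chain of most laminins, was the most abundant basement membrane gene per length and was not called. It had 1749 reads in stimulated KO and 1915 in stimulated WT cells, and 2454 in unstimulated KO and 2300 in unstimulated WT cells, with log2 ratios of -0.09 and -0.10. Col4a1 and Col4a2, the chains of the common type IV collagen, were not called either: Col4a2 had 302 reads in stimulated KO and 378 in stimulated WT cells, and 233 in unstimulated KO and 182 in unstimulated WT cells. Col4a1 had 144 reads in stimulated KO and 192 in stimulated WT cells, and 119 in unstimulated KO and 87 in unstimulated WT cells. For both chains the KO library was the lower of the pair in stimulated cells and the higher in unstimulated cells. The nidogens, which join laminin to type IV collagen, and the chains Col4a3, Lama3, Lama4, Lamb2 and Lamb3 were not called. Col4a6, Lama1 and Lama2 were listed in unstimulated cells alone, with at most 3 reads in a library.

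Among the 18 other collagens, Col6a1 and Col6a2 were called in stimulated cells and Col8a1 in unstimulated cells, all higher in KO. Col6a1 and Col6a2 encode chains of type VI collagen, which forms beaded filaments near cell surfaces. Col6a1 had 45 reads in stimulated KO and 10 in stimulated WT cells, and 21 in unstimulated KO and 12 in unstimulated WT cells. Col6a2 had 40 reads in stimulated KO and 13 in stimulated WT cells, and 23 in unstimulated KO and 17 in unstimulated WT cells. In stimulated cells the log2 ratios were 2.21 (1.197 to 3.36) and 1.66 (0.73 to 2.68). In unstimulated cells both intervals spanned 0. The call of Col6a2 is at the edge, since an exact binomial test on its reads gave an adjusted p of 0.00126.

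Col6a3, the third main chain of type VI collagen, was called in neither state. It had 31 reads in stimulated KO and 23 in stimulated WT cells, and in unstimulated cells it had the lowest ratio of the other collagens, with 7 reads in KO and 15 in WT (log2 ratio -1.29, -2.83 to 0.09). The difference between states, stimulated minus unstimulated, was 1.76 (0.25 to 3.27) for Col6a3. It was 1.59 (0.17 to 3.01) for Col6a1 and 1.41 (0.13 to 2.69) for Col6a2. Col8a1, a short-chain collagen of vessel walls and of the cornea, had 17 reads in stimulated KO and 3 in stimulated WT cells, and 21 in unstimulated KO and 1 in unstimulated WT cells. Its log2 ratio of 4.20 in unstimulated cells therefore has an interval of 1.56 to 9.57; in stimulated cells the ratio was 2.54 (0.75 to 4.95), with an adjusted p of 0.00595.

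The other collagens with more reads were not called. Col15a1, a collagen beside basement membranes, had 279 reads in stimulated KO and 277 in stimulated WT cells, and 228 in unstimulated KO and 222 in unstimulated WT cells. Col23a1, a membrane-spanning collagen, had 331 reads in stimulated KO and 407 in stimulated WT cells, and 161 in unstimulated KO and 175 in unstimulated WT cells. The extremes in stimulated cells were again sparse: Col10a1, a collagen of growth plate cartilage, had 7 reads in KO and 1 in WT, and Col13a1 had 1 in KO and 2 in WT. Col7a1, Col9a2, Col9a3, Col12a1, Col14a1, Col16a1, Col17a1, Col18a1, Col20a1 and Col6a5 were called in neither state.

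Fibronectin (Fn1) and fibulin 2 (Fbln2) were the glycoproteins called, higher in KO in both states. Fn1 had 1255 reads in stimulated KO and 478 in stimulated WT cells, and 752 in unstimulated KO and 313 in unstimulated WT cells. Its log2 ratio was 1.43 (1.28 to 1.58) in stimulated and 1.07 (0.88 to 1.27) in unstimulated cells, and among the genes called higher it had the most reads after Spp1. Fbln2, which binds fibronectin and laminins in elastic and basement membrane matrix, had 98 reads in stimulated KO and 28 in stimulated WT cells, and 133 in unstimulated KO and 29 in unstimulated WT cells. Its log2 ratio was 1.84 (1.22 to 2.50) in stimulated and 2.01 (1.42 to 2.64) in unstimulated cells. The authors' deposited table marked Fn1 as a key gene in both states, Col3a1 and Fbln2 in unstimulated cells and Tnc in stimulated cells.

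Fibrillin 1 (Fbn1), the backbone of microfibrils, had 107 reads in stimulated KO and 70 in stimulated WT cells, and 57 in unstimulated KO and 32 in unstimulated WT cells. Its log2 ratios of 0.65 and 0.64 were not called. Fbln7 was not called either, and Fbln5, an elastic fibre protein, gave the lowest ratio of the group in both states on at most 7 reads per library. All 5 ratios of this group were above 0 in stimulated cells, and 4 of 5 were in unstimulated cells.

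Of the matricellular proteins, Tnc and Sparc were called higher in stimulated KO cells, Spp1 was called higher and Thbs1 lower in both states. Tnc (tenascin C), a matrix protein of wounds and inflamed tissue, had 272 reads in stimulated KO and 55 in stimulated WT cells, and 154 in unstimulated KO and 84 in unstimulated WT cells. Sparc, a collagen-binding protein, had 205 reads in stimulated KO and 53 in stimulated WT cells, and 93 in unstimulated KO and 45 in unstimulated WT cells. On the log2 scale the ratio of Tnc was 2.34 (1.92 to 2.79) in stimulated cells and 0.68 (0.29 to 1.08) in unstimulated cells, with an adjusted p of 0.00334 in unstimulated cells. That of Sparc was 1.99 (1.55 to 2.45) and 0.86 (0.33 to 1.40), with an adjusted p of 0.00637 in unstimulated cells.

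Spp1 (osteopontin), a secreted phosphoprotein made in quantity by macrophages, had the most reads of all members. It had 24550 reads in stimulated KO and 20232 in stimulated WT cells, and 28630 in unstimulated KO and 21529 in unstimulated WT cells. The log2 ratio was small, at 0.32 (0.29 to 0.34) in stimulated and 0.22 (0.19 to 0.25) in unstimulated cells, and the many reads made its counting interval narrow. Thbs1 (thrombospondin 1), which activates latent TGF-beta, had the next most reads. They are known as lower limits, at 11007 in stimulated KO and 15588 in stimulated WT cells, and 10115 in unstimulated KO and 11814 in unstimulated WT cells. Its log2 ratio was -0.47 in stimulated and -0.42 in unstimulated cells, so the KO library was the lower one in both. Postn had 45 reads in stimulated KO and 19 in stimulated WT cells (log2 ratio 1.28, 0.48 to 2.14) and was not called. Thbs2 had the lowest ratio of the group in stimulated cells, on 1 read in KO and 3 in WT.

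Among the proteoglycans, biglycan (Bgn) was called higher in KO in both states, and decorin, lumican and versican were not called. Bgn, a small leucine-rich proteoglycan that binds collagen and can signal through Toll-like receptors, had 179 reads in stimulated KO and 62 in stimulated WT cells, and 184 in unstimulated KO and 96 in unstimulated WT cells. The ratio of Bgn on the log2 scale was 1.57 (1.14 to 2.01) in stimulated and 0.75 (0.38 to 1.12) in unstimulated cells. Decorin (Dcn), its close relative, had 419 reads in stimulated KO and 382 in stimulated WT cells, and 287 in unstimulated KO and 219 in unstimulated WT cells. The interval of Dcn spanned 0 in both states (-0.03 to 0.37 and -0.06 to 0.46). Versican (Vcan) had 966 reads in stimulated KO and 1103 in stimulated WT cells, and 915 in unstimulated KO and 794 in unstimulated WT cells. Lumican (Lum) had at most 12 reads in a library and the lowest ratio of the 4 proteoglycans in both states.

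Of the lysyl oxidases, which cross-link collagen and elastin, Lox was called higher in stimulated KO cells. It had 629 reads in stimulated KO and 455 in stimulated WT cells, and 279 in unstimulated KO and 221 in unstimulated WT cells. The log2 ratio of Lox was 0.50 (0.33 to 0.68) in stimulated cells and 0.14 (-0.11 to 0.41) in unstimulated cells. Loxl2 had 562 reads in stimulated KO and 607 in stimulated WT cells, and its ratio was the lowest of the 4 oxidases in both states. Loxl1 had the highest ratio on 13 reads in stimulated KO and 2 in stimulated WT cells (log2 ratio 2.74, 0.59 to 5.93), which was not called, and neither was Loxl3.

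**Figure D3:**
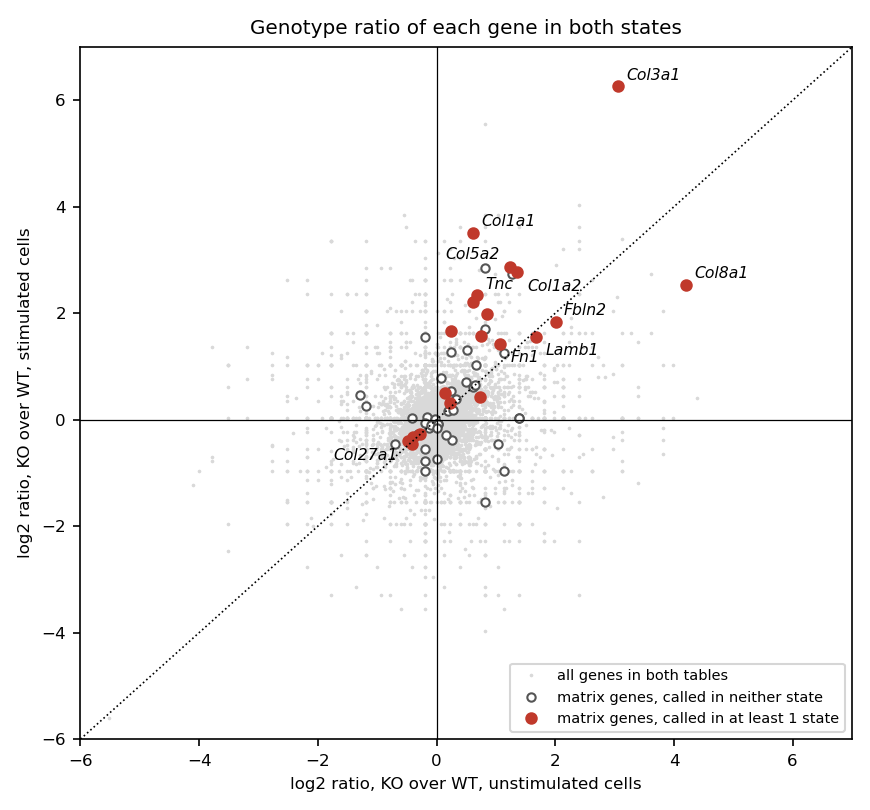
The log2 ratio of KO over WT in unstimulated cells (horizontal axis) against stimulated cells (vertical axis) for the 60 matrix genes in both tables (circles, filled where called in at least 1 state) over all 14823 genes in both tables (grey); the dotted line marks equal ratios. Col1a1 lies at 0.62 and 3.51 and Col3a1 at 3.06 and 6.27, above the line, while Fbln2 and Lamb1 lie close to it.

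The genotype ratio differed between the states for 17 of the 60 members by the interval of the difference, which covers counting alone. Among all 14823 genes in both tables, such an interval lay above 0 for 8.67% and below 0 for 9.18%. The interval lay above 0, so that the KO over WT ratio was larger in stimulated cells, for 14 members: Col1a1, Col1a2, Col3a1, Col5a2, Col6a1, Col6a2, Col6a3, Col14a1, Fn1, Bgn, Sparc, Tnc, Lox and Spp1. The difference was 3.21 (0.999 to 5.43) for Col3a1, 2.89 (2.17 to 3.61) for Col1a1, 1.63 (0.99 to 2.26) for Col5a2 and 0.36 (0.11 to 0.60) for Fn1 on the log2 scale. It lay below 0 for Col4a1, Col4a2 and Nid2, at -0.64 (-1.15 to -0.13) for Col4a1 and -0.45 (-0.81 to -0.10) for Col4a2. Some of these differences depend on the division by library totals. With the ratios as deposited, 8 of the 14 intervals stayed above 0, and those of Col6a1, Col6a2, Col14a1, Fn1, Lox and Spp1 no longer did; 12 members then lay below 0, against 0.621% of all genes above 0 and 48% below. The difference of Fn1 was then 0.13, that of Lox also 0.13, and that of Spp1, which is 0.10 (0.06 to 0.13) with the division, was -0.13.

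The recovered reads also allow each genotype's stimulated library to be set beside its unstimulated one. The tables were made separately, so these are ratios of RPM with a counting interval and no call, and they share libraries with the genotype ratios above. In KO cells, 26 of 59 members with exact reads had a stimulated over unstimulated interval above 0 and 6 had one below 0, against 13.2% and 40.9% of all 14697 such genes. In WT cells, 15 lay above 0 and 7 below, against 13.2% and 40.3% of all such genes. The median of all genes was -0.16 in KO and -0.14 in WT, so a member level with the median gene stands slightly below 0.

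A first set of genes was higher after stimulation in both genotypes, with a difference between genotypes whose interval spanned 0. For Col27a1 the log2 ratio of stimulated over unstimulated cells was 1.31 (1.23 to 1.40) in KO and 1.23 (1.15 to 1.30) in WT. For Col5a3 it was 1.36 (1.24 to 1.49) in KO and 1.35 (1.23 to 1.47) in WT, and for Loxl2 it was 1.26 (1.05 to 1.48) in KO and 1.36 (1.13 to 1.58) in WT. The chains that were lower in KO, Col5a1 among them, were therefore ones whose level was higher after IFN-gamma and LPS in both genotypes. Lama5 and Lamc1 were lower after stimulation in both genotypes; for Lama5 the log2 ratio was -1.27 (-1.49 to -1.04) in KO and -0.95 (-1.23 to -0.68) in WT.

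A second set had an interval above 0 in KO cells and none above 0 in WT cells. Col1a1 had a stimulated over unstimulated log2 ratio of 2.20 (1.86 to 2.55) in KO, against -0.69 (-1.38 to -0.03) in WT. Tnc had 0.93 (0.64 to 1.22) in KO, against -0.73 (-1.25 to -0.23) in WT. These were the 2 members whose intervals lay on opposite sides of 0, and relative to the median gene the WT interval of Col1a1 would reach above 0. For Col3a1 the ratio was 2.68 (2.18 to 3.21) in KO and -0.54 (-3.31 to 2.03) in WT, and for Col1a2 it was 1.69 (1.32 to 2.07) in KO and 0.28 (-0.47 to 1.04) in WT. Col5a2 stood at 1.27 (0.99 to 1.57) in KO and -0.35 (-0.95 to 0.24) in WT, and Sparc at 1.25 (0.88 to 1.61) in KO and 0.11 (-0.49 to 0.72) in WT. The WT intervals of these 4 genes spanned 0. Bgn had the other form, level in KO at 0.07 (-0.24 to 0.37) and lower after stimulation in WT at -0.75 (-1.24 to -0.28).

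**Figure D4:**
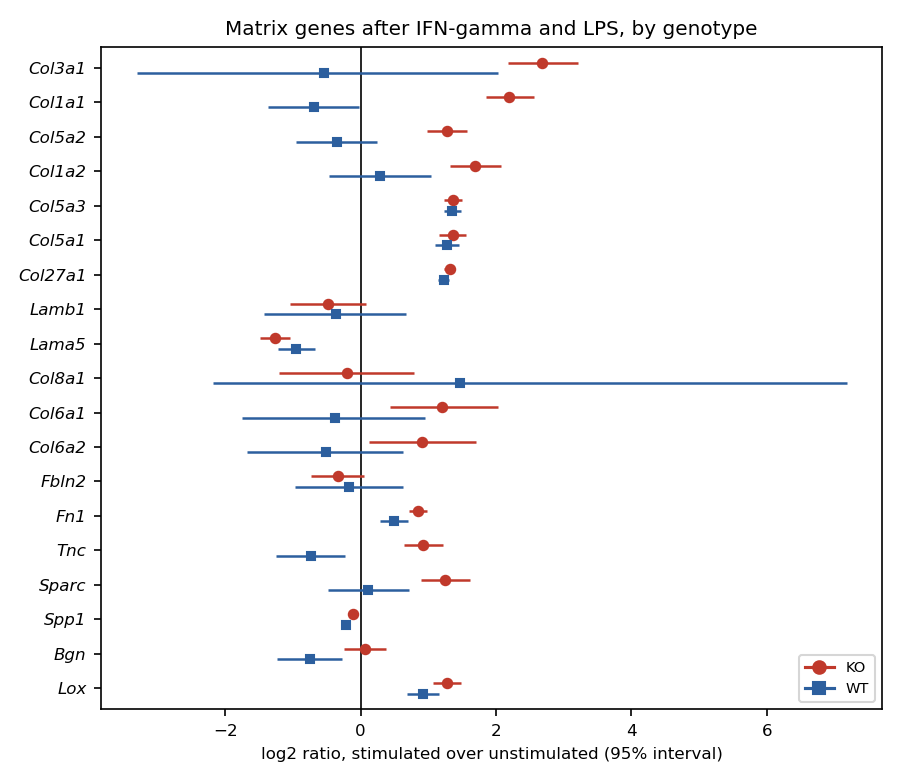
The log2 ratio of stimulated over unstimulated cells, with its 95% counting interval, in KO (circles) and WT (squares) for the 19 called matrix genes whose reads are exact. Col5a3, Col5a1 and Col27a1 lie between 1.23 and 1.36 in both genotypes, whereas Col1a1 lies at 2.20 in KO and -0.69 in WT.

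Several members are neighbours in the genome (GRCm38.p6, RefSeq). Col3a1 (chr1:45311538-45349706, plus strand) and Col5a2 (chr1:45374331-45503282, minus strand) end towards each other 24.6 kb apart with 0 protein-coding genes between, and both were called higher in KO in both states. Col6a2 (chr10:76595756-76623630) and Col6a1 (chr10:76708792-76726044), both on the minus strand and 85.2 kb apart, were both called higher in stimulated KO cells. Col4a1 (chr8:11198423-11312889, minus strand) and Col4a2 (chr8:11312805-11449287, plus strand) start away from each other with an overlap of 85 bases, and their ratios had the same sign in both states. Their differences between states, given above, also had the same sign. Nearness did not always go with a shared direction: Col27a1, which was lower in KO, and Tnc, which was higher in stimulated KO cells, both lie on chromosome 4 with 11 protein-coding genes and 625 kb between them.

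Of 28 genes on a list of the enzymes and chaperones that make collagen, 25 were listed; 2 were called higher and 2 lower in stimulated cells (8% each), and 0 higher and 2 lower (8%) in unstimulated cells, beside the shares of all genes given above. Serpinh1, the chaperone that binds folded procollagen, had 79 reads in stimulated KO and 27 in stimulated WT cells (log2 ratio 1.58), and 57 in unstimulated KO and 31 in unstimulated WT cells (0.69, not called). The other gene called higher in stimulated cells was Glt25d1, a collagen galactosyltransferase, at 0.12. The genes called lower were subunits of collagen prolyl hydroxylase: P4ha1 at -0.23 and P4ha2 at -0.42 in stimulated cells, and P4ha1 at -0.21 and P4hb at -0.06 in unstimulated cells, where P4hb turns positive in the ratios as deposited, which are not divided by library totals. The list's median log2 ratio was 0.12 in stimulated and 0.07 in unstimulated cells.

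Matrix receptors had small ratios where they were called. Of 26 genes, all listed in both states, 3 were called higher and 1 lower in stimulated cells, against 5.36% and 6.54% of all genes. In unstimulated cells 5 were called higher and 1 lower, against 4.7% and 4.27% of all genes. The median log2 ratios were 0.08 in stimulated and 0.03 in unstimulated cells. The whole list ran from -0.19 to 1.45 in stimulated and from -0.25 to 1.57 in unstimulated cells. Its highest genes were sparse and not called. They were the collagen receptor Ddr2 in stimulated cells (24 reads in KO, 9 in WT) and Sdc2 in unstimulated cells (17 in KO, 5 in WT). The scavenger and thrombospondin receptor Cd36 was the highest of the called receptors in stimulated cells, with 27878 reads in KO and 22663 in WT (log2 ratio 0.33). The hyaluronan receptor Cd44, which also binds osteopontin, was the gene called lower in both states, at -0.08 in stimulated and -0.12 in unstimulated cells, of which the second turns positive in the ratios as deposited. The fibronectin receptor chains Itga5 and Itgav were called in neither state, and their partner Itgb1 was called higher in both at 0.13 and 0.07.

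Markers of fibroblasts and smooth muscle were read beside the collagens, since those cells are common makers of types I and III collagen. Of 25 marker genes, 21 were listed in stimulated cells, with a median log2 ratio of 0.53. There 7 were called higher and 2 lower in KO, against 5.36% and 6.54% of all genes. In unstimulated cells 19 were listed, and the median was 0.40. Of these, 3 were called higher and 1 lower, against 4.7% and 4.27% of all genes. The summed level of the list was 495 RPM in stimulated KO and 455 in stimulated WT cells, and 344 in unstimulated KO and 286 in unstimulated WT cells. Most of it was Pdpn, which had 14539 of the 18189 reads of the list in stimulated KO cells and 14091 of 17155 in stimulated WT cells.

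The largest called ratios of the list in stimulated cells were those of sparse genes. Igfbp5 had 89 reads in stimulated KO and 13 in stimulated WT cells, and Igfbp3 had 41 in KO and 4 in WT. Ngfr had 24 reads in KO and 3 in WT, and Fgf7 had 22 in KO and 3 in WT. All 4 were higher in stimulated KO cells, as were the type I and III collagen genes. The same 4 were not called in unstimulated cells. Called higher in both states were Cald1, Thy1 and Pdpn. Their log2 ratios were 1.32, 0.41 and 0.08 in stimulated cells, and 1.04, 0.40 and 0.26 in unstimulated cells. The mesenchymal receptor Pdgfra, with 24 reads in stimulated KO and 17 in stimulated WT cells, and the smooth muscle actin Acta2, with 20 in KO and 26 in WT, were not called. Pdgfrb and Mmp2 were called lower in stimulated KO cells, at log2 ratios of -0.74 and -0.45. In unstimulated cells Mmp2 was called lower at -0.77, and Pdgfrb was not called. Dpt, Twist2, Mfap4 and Cnn1 were listed in neither state. Of 11 endothelial markers, all listed, 0 were called higher and 2 lower in stimulated cells, against 5.36% and 6.54% of all genes. In unstimulated cells 2 were called higher and 1 lower, against 4.7% and 4.27% of all genes. The part of other cell types in the collagen differences was not tested.

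**Figure D5:**
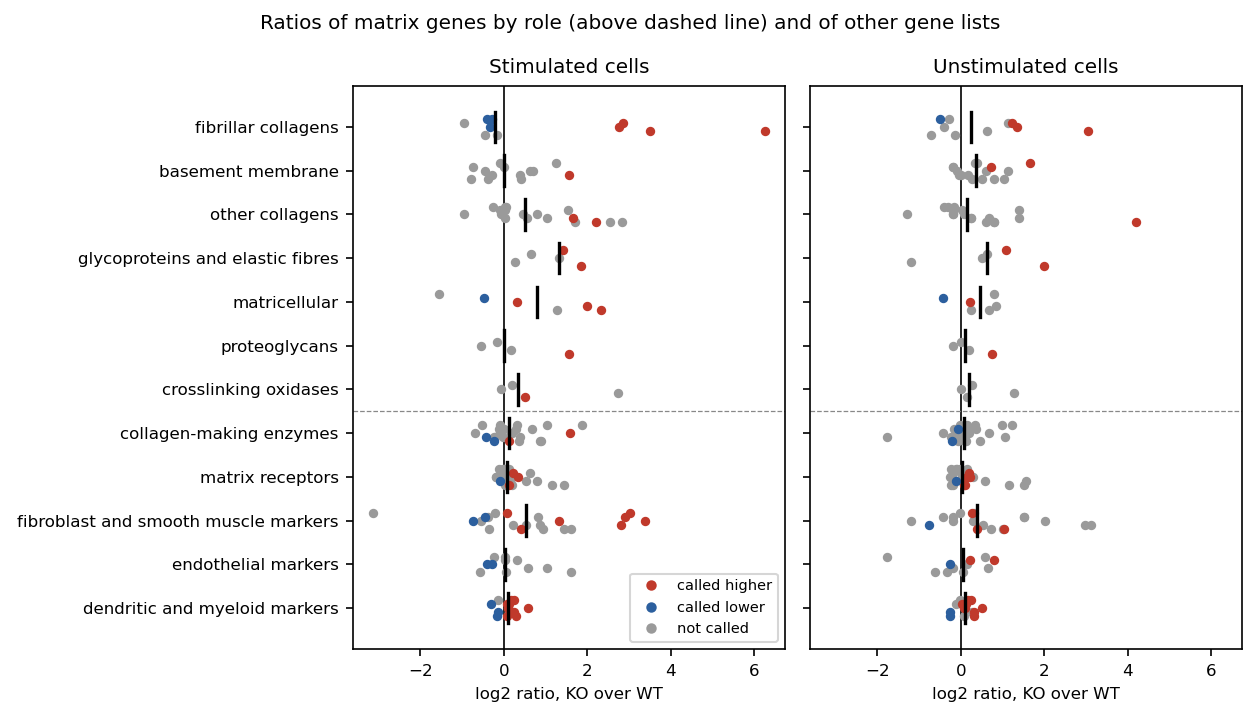
Each point is the log2 ratio of KO over WT of a listed gene, coloured by its call, and black bars are medians; the rows above the dashed line are the 7 roles of the matrix genes and those below it the 5 other lists, in stimulated and unstimulated cells. The fibrillar collagens split to both sides, with a median of -0.22 in stimulated and 0.24 in unstimulated cells, while dendritic and myeloid markers lay between -0.30 and 0.57 in stimulated cells.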

How the data were processed

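Per the labels' protocols, libraries were strand-specific Illumina TruSeq mRNA. The build mm10, HTSeq 0.6.0 and FastQC 0.10.1 are named, per the submitters' processing notes. The aligner, annotation, strand setting and statistical test were not given in the sources used here. In 2 tables, the authors deposited a log2 fold change (KO over WT) and a −log10 p-value per gene, per the file headers; the p columns are named log10 p there and hold −log10 p from their values, with no value above 150 in the stimulated and 100 in the unstimulated table. Further columns mark the authors' differential and key genes.

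Reads per library are an own derivation from the values, planned as a check of precision: the deposited ratio is that of raw reads (0 written as 0.5) and the deposited p follows from it by counting error. The derived reads were whole within 0.1 (100%) for every gene under 10000 reads with −log10 p below its highest value. These were 14683 genes in stimulated and 14773 in unstimulated cells. For 50 and 51 genes at the highest −log10 p, Thbs1 among them, reads are lower limits. A gene at 0 in 1 library is listed only with 5 or more reads in the other. Log2 ratios were centred where the deposited p equals 1, which is the ratio of library totals (-0.04 in stimulated, 0.19 in unstimulated cells). Intervals are exact binomial, 95%, in place of the planned SE from the ratio and the p. Intervals of differences between states use the joint counting error. RPKM uses GENCODE M21 exon lengths; positions and promoters come from RefSeq GRCm38.p6. Promoters for Col1a1, Col5a2 and Fn1 were not used here.

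Calls are Benjamini-Hochberg adjusted deposited p-values under 0.001 over each table. Members and lists were chosen with earlier results of these data known. Named genes are all called members, Col3a1, Col1a2 and Fn1, the highest and lowest member of each role, and up to 4 called genes of each other list; Col4a1, Col4a2, Lamc1, Fbn1, Col11a2, Col15a1, Col23a1, Postn, Dcn, Vcan, Pdgfra, Acta2, Pdpn, Itga5, Itgav and Nid2 were chosen for their role or reads after their values were seen. A gene that the rule names is not reported here. Of 79 annotated genes that match the rule, 16 were in neither table. Steps were tested on simulated data made with the same counting-error formula. That test cannot show whether the authors' own p-values follow the formula. Python 3.11.15, numpy 2.4.6, pandas 2.3.3, scipy 1.17.1 and matplotlib 3.10.9 were used.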

Additional observations from a re-analysis of the deposited data

Results flagged for a closer look

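For 2 matrix genes the interval of stimulated over unstimulated cells lay above 0 in KO and below 0 in WT. For Col1a1, the log2 ratio of stimulated over unstimulated cells was 2.20 in KO and -0.69 in WT, a difference of 2.89. For Tnc it was 0.93 in KO and -0.73 in WT, a difference of 1.66. Such a difference equals the difference between states, whose interval lay above 0 for 14 members and below 0 for 3. Relative to the median gene, the WT interval of Col1a1 would reach above 0. With 1 library per group the difference was not tested.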

How the results depend on the processing

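No paired analysis was possible because each group holds 1 library. Ratios as deposited and ratios centred on the median gene gave the same counts of calls. The p-values are the same under both, so only the sign of a ratio could have changed there. The counts kept their direction under an exact binomial test (chosen after seeing the data). At an adjusted p under 0.05, 23 members were called higher in stimulated and 4 lower in unstimulated cells, in place of 14 and 2. With a fold of 1.5 or more also required, 0 were called lower in either state, in place of 4 and 2. Among members as precise as 50 reads per library, 6 were called higher in unstimulated cells in place of 10, and the median log2 ratio was 0.11 in stimulated and 0.16 in unstimulated cells, in place of 0.35 and 0.26; the cause was not tested. With ratios as deposited the unstimulated median was 0.45, which adds the ratio of library totals. The exact test left 13 called higher in stimulated cells, losing Col6a2. With ratios as deposited (chosen after seeing the data), 8 members had a difference between states above 0 and 12 below 0, in place of 14 and 3. The differences between states of Col27a1, Col5a3 and Spp1 were -0.14, -0.22 and -0.13 with ratios as deposited. Leaving out a replicate could not be done with 1 library per group. Depth limits members under 50 reads, where a ratio can be large and still uncalled, as for Loxl1.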

Other observations

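Matching genes listed in neither table were Col4a4, Col4a5, Col6a4, Col6a6, Col8a2, Col9a1, Col11a1, Col19a1, Col22a1, Col25a1, Col26a1, Col28a1, Eln, Fbln1, Fbn2 and Lamc3. Per length, the matrix genes with the highest level in stimulated cells were Spp1, at 405 RPKM in KO and 326 in WT, and Thbs1, at no less than 49.3 in KO and 68.1 in WT. Next was Col27a1, at 7.67 in KO and 10.1 in WT. The type I and III collagen genes were at most 1.52 RPKM in KO and 0.133 in WT.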
